A study of Homo sapiens with 6 samples.

Results

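The proteasome subunits are described here as they were measured in A2780, a human ovarian cancer cell line, after treatment with TH588, a mitotic inhibitor of the Nudix hydrolase MTH1. Protein-coding genes whose symbol is PSMA, PSMB, PSMC, PSMD or PSME followed only by digits were taken as members, which gave 43 of the 58336 genes in the deposited count table. TH588 was given at 6 µM for 48 h in 3 replicates (A, B and C), and 3 replicates (A, B and C) received the DMSO vehicle. All libraries came from this 1 line, the study describes its triplicates as biological, and no genotype or other agent differed between the groups. By their known roles the members are 7 genes of the alpha ring, 1 alternative alpha gene, 7 genes of the beta ring, 3 immunoproteasome genes, 1 thymoproteasome gene, 17 genes of the regulatory cap, 3 assembly chaperones of the cap and 4 activators.

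The proteasome is the protease that degrades proteins marked with ubiquitin. Its core is a barrel of stacked rings: the outer alpha rings gate the entrance, and the inner beta rings hold the catalytic sites, which are carried by *PSMB5*, *PSMB6* and *PSMB7*. The cap recognises ubiquitin, removes it and feeds the unfolded substrate into the core. In cells exposed to interferon the catalytic beta subunits are replaced by *PSMB8*, *PSMB9* and *PSMB10*, which favours peptides suited to antigen presentation, and the activators *PSME1* and *PSME2* open the core without a cap. Cancer cells depend on this machinery to remove damaged and short-lived proteins, among them p53 and cyclins.

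Total counts were 28537837 in TH588 replicate A, the shallowest library, and 77634048 to 99074175 in the other 5. The small nucleolar RNA *SNORD3A* took 21.9% of the counts of TH588 replicate A and 7.68% to 12.95% elsewhere. Levels are given as CPM, counts per 1000000 of a library's total over the genes tested, with that total scaled by TMM normalization. TMM adjusts each total for differences in composition between libraries. Values per library follow the order A, B, C. The epithelial markers expected of an ovarian carcinoma were largely absent: *PAX8* and *KRT7* had 0 counts in 5 of the 6 libraries, and only *EPCAM* and *KRT18* of 8 markers had enough counts to be tested. The summed level of these 8 markers was 3.82 to 4.60 CPM with DMSO and 10.9 to 12.2 CPM with TH588. Among 8 immune markers *CD3E* and *HLA-DRA* had 0 counts in all 6 libraries, and the summed level was 1.31 to 2.12 CPM with DMSO and 1.51 to 2.39 CPM with TH588, with 1 of 3 tested genes, *CD14*, higher. The 6 fibroblast markers summed to 1591 to 1919 CPM with DMSO and 1882 to 2622 CPM with TH588, nearly all from *COL3A1*, and 3 of them were higher. The part of these marker levels in the results was not tested.

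To show the DNA before the members that moved apart, 150 bases upstream of a RefSeq start are printed for 6 of them: both immunoproteasome genes that could be tested, the paired activators *PSME1* and *PSME2*, the activator with the largest fall (*PSME3*) and the cap ATPase with the largest fall (*PSMC3*). Capitals mark a match to 1 of the 6 motifs searched on both strands, and the rest is in lower case. The sequences are from RefSeq on GRCh38.p14, each 5′ to 3′ on the strand of its gene. *PSMB9* is at chr6:32854042-32854191 on the plus strand, *PSMB10* at chr16:67936851-67937000 on the minus strand, *PSME1* at chr14:24136044-24136193 on the plus strand, *PSME2* at chr14:24146611-24146760 on the minus strand, *PSME3* at chr17:42833247-42833396 on the plus strand and *PSMC3* at chr11:47426440-47426589 on the minus strand.
PSMB9: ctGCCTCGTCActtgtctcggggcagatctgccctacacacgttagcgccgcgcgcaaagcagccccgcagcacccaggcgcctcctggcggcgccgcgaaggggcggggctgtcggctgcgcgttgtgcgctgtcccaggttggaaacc
PSMB10: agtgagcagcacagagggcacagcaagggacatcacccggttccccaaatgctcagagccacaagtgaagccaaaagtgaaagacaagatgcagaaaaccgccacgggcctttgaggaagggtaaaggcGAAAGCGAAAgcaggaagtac
PSME1: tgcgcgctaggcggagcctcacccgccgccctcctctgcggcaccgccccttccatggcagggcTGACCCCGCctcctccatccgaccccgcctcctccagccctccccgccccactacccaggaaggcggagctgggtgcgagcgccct
PSME2: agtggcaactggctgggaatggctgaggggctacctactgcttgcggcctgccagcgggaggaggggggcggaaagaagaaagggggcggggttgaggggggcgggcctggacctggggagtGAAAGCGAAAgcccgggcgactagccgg
PSME3: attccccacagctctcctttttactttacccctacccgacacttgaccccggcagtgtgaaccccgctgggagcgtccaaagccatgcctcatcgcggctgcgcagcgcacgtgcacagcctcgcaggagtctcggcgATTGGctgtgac
PSMC3: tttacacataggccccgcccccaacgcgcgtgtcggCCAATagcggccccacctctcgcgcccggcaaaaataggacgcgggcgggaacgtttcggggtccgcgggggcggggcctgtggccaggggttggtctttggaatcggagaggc

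The capitals are a match to TGACNNNGC, the antioxidant response element (ARE) read by NRF1 and NRF2, in *PSMB9* and *PSME1*, with the *PSMB9* match on the opposite strand. In *PSMB10* and *PSME2* they are a match to the interferon-stimulated response element (ISRE), as a pair of GAAA separated by NN. In *PSME3* and *PSMC3* they are a match to CCAAT, the box bound by NF-Y, which in *PSME3* lies on the opposite strand. RefSeq windows of 300 bases, from 250 before to 50 after the start, were matched for 38 of the 43 members. *PSMA7*, *PSMB1*, *PSMB6*, *PSMB7* and *PSMD4* were not matched. The ARE letters were in 13 of the 45 windows of members (28.9%) and in 13.3% of all 35114 windows. ISRE matches were in 6 of 45 (13.3%), those of *PSMA4*, *PSMB4*, *PSMB8*, *PSMB10*, *PSME1* and *PSME2*, against 3.57% of all windows. CCAAT was in 19 of 45 (42.2%) against 34.6%, and TTTGAA, the cell cycle homology region, in 7 of 45 (15.6%) against 15.2%. NF-kB motifs were in 2 of 45 (4.44%) against 11.3%, and p53 decamer motifs in 3 of 45 (6.67%) against 6.63%. NF-kB motifs can overlap themselves on both strands, as they did in *PSMA4*. These matches are a description of the letters and were not tested against the changes in RNA.

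The question put to the count data was how the RNA of each subunit class differed after TH588. In the core 8 of 14 genes were lower and in the cap 14 of 17, by the threshold given next. *PSMA7* fell by 45.8%, while the 2 testable immunoproteasome transcripts and *PSME1* rose. Among abundant genes, taken up below, 49.2% were lower. Of the 40 members that passed the filter on low counts, 26 were lower and 3 were higher at an adjusted p under 0.05, and 11 did not pass. In the same comparison 25.3% of all 15844 genes tested were lower and 24.2% were higher, or 49.6% in either direction. The median log2 fold change, TH588 against DMSO, was -0.42 over the 40 members and 0.02 over all genes tested. All 3 TH588 libraries lay below all 3 DMSO libraries for 27 of the 40 members and above them for 3, where 29% and 28.7% of all genes tested did so. The members' summed level was 6194, 6248 and 6400 CPM with DMSO and 4941, 4763 and 4736 CPM with TH588, a ratio of means of 0.766. In such bulk samples fewer cells of a type and less RNA per cell cannot be told apart.

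The share of lower genes depended on abundance. Among genes whose mean log2 CPM was 6 or more, 49.2% were lower and 16.6% were higher, and the median log2 fold change was -0.22. The 32 members at that level had 23 lower, 1 higher and a median of -0.45. All 3 TH588 libraries lay below all 3 DMSO libraries for 25 of these 32 members, and for 1481 of the 2805 genes at that level. The background of abundant genes and the one given below for genes of low abundance were chosen after the values had been seen. Genes of low abundance moved the other way: of those with a mean log2 CPM under 1, 21.4% were higher and 5.78% were lower, with a median of 0.33. The 3 members at that level were *PSMA2*, *PSMB9* and *PSMB10*. With TMM replaced by library size only, the median of all genes was 0.13 instead of 0.02 and 22 members were lower instead of 26, with 3 higher under both.

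**Figure D1:**
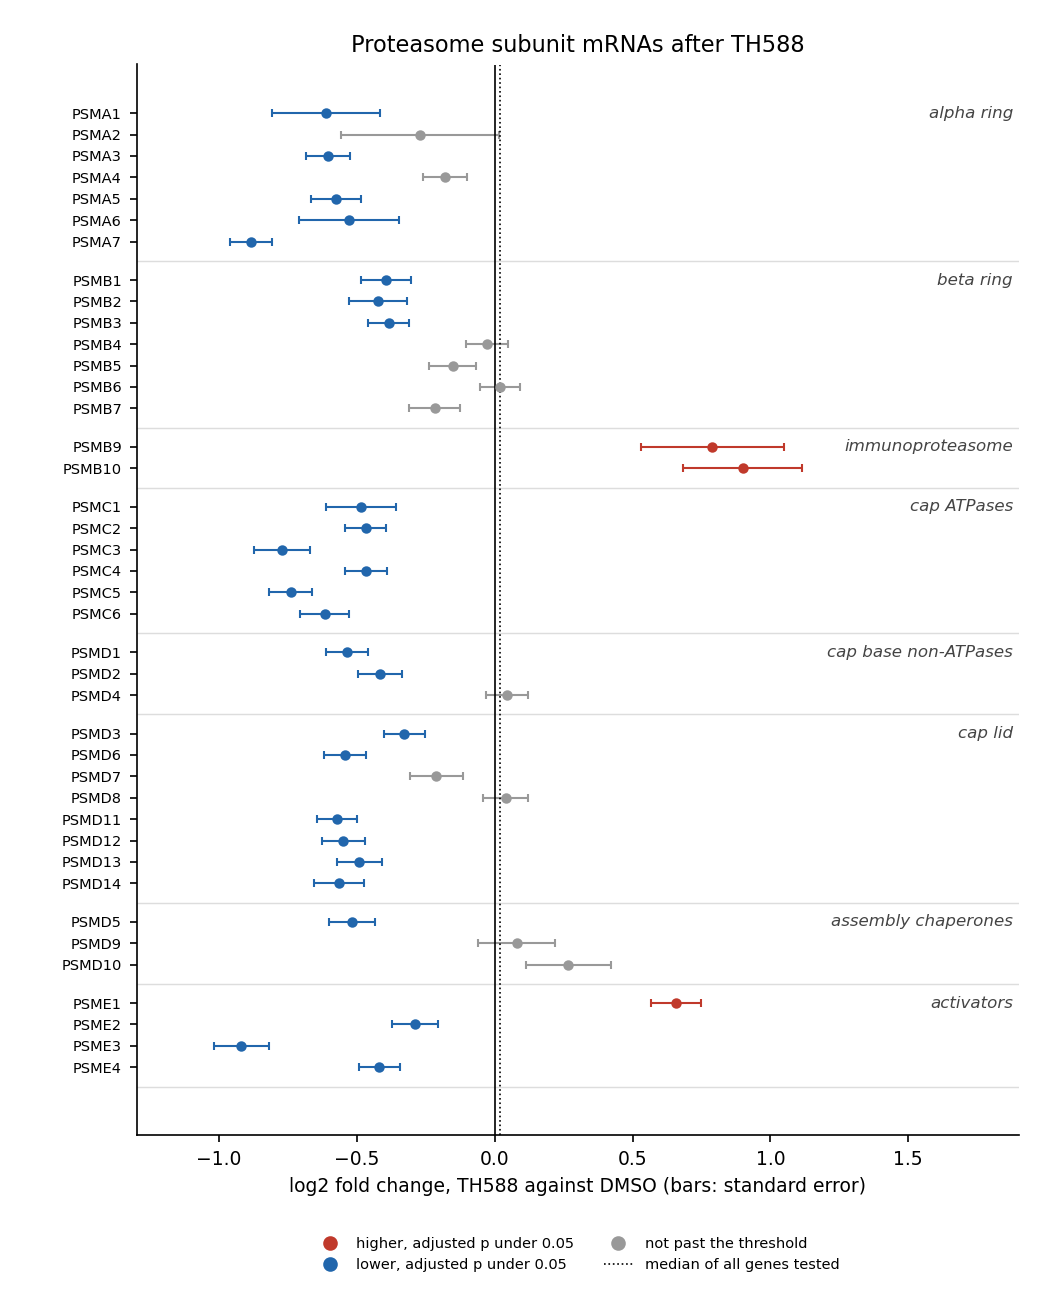
Log2 fold change of each of the 40 members tested, TH588 against DMSO (x axis), by role (rows), with bars for the standard error and the median of all genes tested as a dotted line. All 6 cap ATPases lie left of 0, while *PSMB9*, *PSMB10* and *PSME1* lie right of it in red.

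In the alpha ring, 5 of 7 genes were lower, with a median log2 fold change of -0.58. Of all genes tested 25.3% were lower, and of those with a mean log2 CPM of 6 or more 49.2%. *PSMA7* (ENSG00000101182), on chromosome 20 of GRCh38 from 62136735 to 62143440, had the largest fall in the ring. It read 165, 153 and 166 CPM with DMSO, against 88.2, 89.0 and 85.7 CPM with TH588. The 3 TH588 libraries were within 4 CPM of each other, and far below each DMSO library. The mean was 162 ± 7.29 CPM (SD, n = 3) in the DMSO libraries and 87.6 ± 1.75 CPM (SD, n = 3) in the TH588 libraries. The log2 fold change was -0.88 (SE 0.08, adjusted p = 1.70e-06 by the edgeR quasi-likelihood test). *PSMA3* fell by 0.60 and *PSMA5* by 0.58 on the log2 scale (adjusted p = 6.00e-05 and 0.000238 from the same edgeR test). *PSMA4* had a log2 fold change of -0.18 and did not pass the threshold (adjusted p = 0.0788 from the edgeR test), although its groups did not overlap. *PSMA8*, which replaces *PSMA7* in germ cells, had 0 counts in all 6 libraries.

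The 3 remaining alpha genes had very low counts for subunits that each core contains. In DMSO libraries *PSMA6* was at 10.3, *PSMA1* at 3.56 and *PSMA2* at 0.874 CPM per kb of main transcript (the MANE Select transcript), while the other 28 core and cap genes were at 21.3 to 337 CPM per kb. Exons of another gene on the same strand cover 81.4%, 67.0% and 54.5% of the main transcripts of *PSMA6*, *PSMA1* and *PSMA2*. Those overlapping genes are annotated as protein-coding and have no symbol, and each had 0 to 11 counts in every library. How reads in shared exons were counted is not given in the sources used here, so the levels of these genes are uncertain. *PSMA1* fell by 0.61 (SE 0.19, adjusted p = 0.0204 from edgeR) and *PSMA6* by 0.53 on the log2 scale (SE 0.18, adjusted p = 0.0295 from edgeR). *PSMA6* read 8.42, 11.9 and 11.3 CPM with DMSO and 7.21, 5.64 and 9.12 CPM with TH588, so its groups overlapped. Its call was lost without DMSO replicate B, DMSO replicate C, TH588 replicate A or TH588 replicate B (adjusted p = 0.0999, 0.0982, 0.0579 and 0.106 from edgeR), and with library size only (0.0945). The *PSMA1* call was lost without DMSO replicate C or TH588 replicate A (adjusted p = 0.127 and 0.0578 from edgeR), and with library size only (0.0868). *PSMA2* had a log2 fold change of -0.27 that did not pass (SE 0.29, adjusted p = 0.463 from edgeR).

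**Figure D2:**
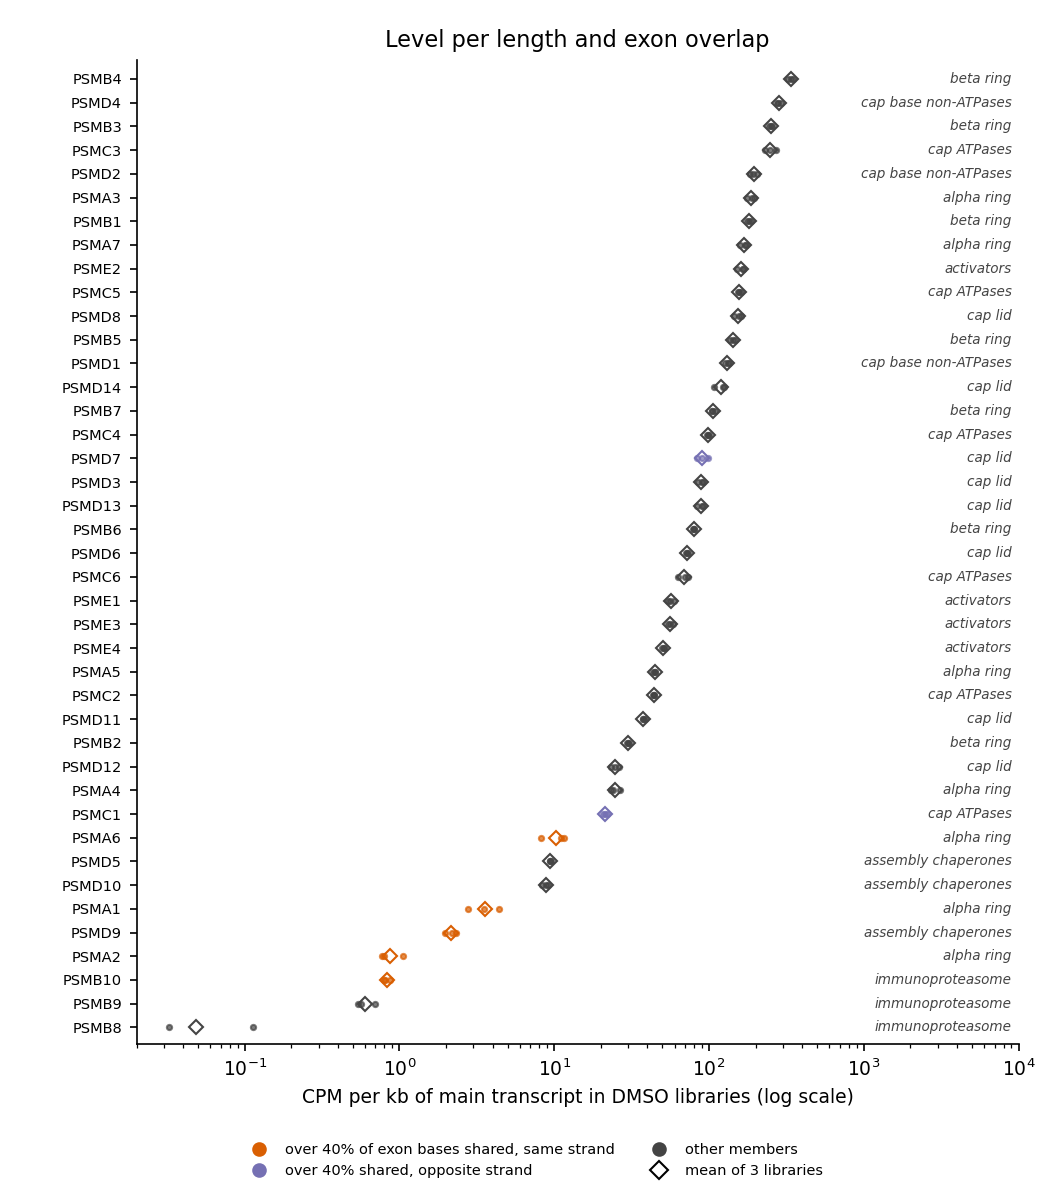
Level of each member with counts in DMSO libraries, as CPM per kb of main transcript on a log axis, from the highest to the lowest, with dots for single libraries and diamonds for their mean (the 0 of *PSMB8* in DMSO replicate A cannot be drawn). Orange marks members with over 40% of main transcript bases inside same-strand exons of another gene, and *PSMA6*, *PSMA1* and *PSMA2* are the lowest core genes of the alpha and beta rings.

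Without the 5 tested members whose main transcript is over 40% overlapped on the same strand (*PSMA1*, *PSMA2*, *PSMA6*, *PSMB10* and *PSMD9*), 24 of 35 were lower and 2 were higher. Of these 5 genes, 2 were lower and 1 was higher. The shares lower and higher were 25.3% and 24.2% over all genes tested. They were 49.2% and 16.6% among those with a mean log2 CPM of 6 or more. Among genes overlapped on the opposite strand, which cannot be told apart where strand was not recorded, were *PSMC1* (83.2% of its main transcript, by *NRDE2*) and *PSMD7* (51.6%). Pseudogene copies gave few counts: 26 of the 42 rows named as pseudogenes of members had 0 counts in all libraries, and only *PSMC1P1* had over 100 in total.

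After TH588 the 7 alpha genes together were at 0.671 of their DMSO level, and the 7 beta genes were at 0.864. The difference between these ratios was not tested. Genes weigh unequally in these sums. *PSMA6*, *PSMA1* and *PSMA2* gave 10.5, 4.26 and 1.25 of the 634 CPM of the alpha sum with DMSO, and *PSMB4* 310 of the 1113 CPM of the beta sum. In the beta ring, 3 of 7 genes were lower and 4 did not pass, and their median log2 fold change was -0.22. That was close to the background of abundant genes. Of all tested genes with a mean log2 CPM of 6 or more, 49.2% were lower, with a median of -0.22. The largest fall was in *PSMB2*, a noncatalytic subunit, at 134, 131 and 132 CPM with DMSO and 118, 89.4 and 89.9 CPM with TH588. TH588 replicate A stood closest to the DMSO libraries but below all of them. Its log2 fold change was -0.42 (SE 0.10, adjusted p = 0.00510 from edgeR). *PSMB1* fell by 0.40 and *PSMB3* by 0.38 on the log2 scale (adjusted p = 0.00297 and 0.000950 from edgeR). *PSMB4*, the highest core gene per kb of main transcript, had a log2 fold change of -0.03 (SE 0.08, adjusted p = 0.790 from edgeR). By that length the ratio of *PSMB4* to *PSMB3* was 132% to 140% in DMSO libraries and 169% to 179% in TH588 libraries. Per kb of all annotated exons *PSMB4* was below *PSMB3* with DMSO, at 143 against 162 CPM.

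None of the 3 catalytic beta genes passed the threshold. *PSMB5*, the chymotrypsin-like site, read 144, 149 and 153 CPM with DMSO and 143, 138 and 120 CPM with TH588. Those groups did not overlap, but only just, and the log2 fold change was -0.15 (SE 0.09, adjusted p = 0.161 from edgeR). It was -0.06 without TH588 replicate C (adjusted p = 0.603 from edgeR), and *PSMB5* passed as lower once the gene length trend was removed (-0.23, adjusted p = 0.0388 from edgeR). *PSMB6*, the caspase-like site, read 65.0, 66.4 and 66.3 CPM with DMSO and 67.7, 64.3 and 68.5 CPM with TH588. The DMSO libraries lay within the range of the TH588 libraries, with a log2 fold change of 0.02 (SE 0.07, adjusted p = 0.845 from edgeR). *PSMB7*, the trypsin-like site, read 102, 103 and 107 CPM with DMSO and 102, 82.4 and 84.1 CPM with TH588. TH588 replicate A lay inside the DMSO range while the other 2 were below it, and the log2 fold change was -0.22 (SE 0.09, adjusted p = 0.0683 from edgeR). Without TH588 replicate A, *PSMB7* passed as lower (log2 fold change -0.31, adjusted p = 0.00277 from edgeR).

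The immunoproteasome genes were at most 1.58 CPM in any library, and both that could be tested rose. Of all genes tested 24.2% were higher. Among those with a mean log2 CPM under 1, as both genes had, 21.4% were higher and 5.78% were lower, with a median of 0.33. *PSMB9* (ENSG00000240065), the counterpart of *PSMB6*, lies on chromosome 6 from 32844136 to 32859585 in the region of class II histocompatibility genes. It read 0.548, 0.703 and 0.577 CPM with DMSO and 1.05, 0.965 and 1.1503 CPM with TH588. Every TH588 library was above every DMSO library, with a log2 fold change of 0.79 (SE 0.26, adjusted p = 0.0233 from edgeR). The call was lost without DMSO replicate A, DMSO replicate C or TH588 replicate C (adjusted p = 0.0610, 0.0589 and 0.0893 from edgeR). It was also lost with a replicate block by letter, alone or with the gene length trend removed (adjusted p = 0.0509 and 0.0564 from edgeR). *PSMB10* (ENSG00000205220), the counterpart of *PSMB7*, lies on chromosome 16 from 67934502 to 67937087. It read 0.779, 0.788 and 0.854 CPM with DMSO and 1.42, 1.58 and 1.498 CPM with TH588. The groups were well apart, with a log2 fold change of 0.90 (SE 0.22, adjusted p = 0.00436 from edgeR). Same-strand exons of another gene, with 0 to 27 counts per library, cover 56.1% of its main transcript, so its level is uncertain in the same way as those of *PSMA1*, *PSMA2* and *PSMA6*.

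*PSMB8*, the counterpart of *PSMB5*, did not pass the filter on low counts. It had 0, 3 and 12 counts with DMSO, against 3, 11 and 17 with TH588. These counts overlapped between the groups. With no filter its log2 fold change was 1.32 (SE 0.94, adjusted p = 0.311 from edgeR), so a change was not detectable at this depth. *PSMB11*, the catalytic subunit of the thymus, had 0 counts in every library, a limit of 0.0276 CPM at the greatest depth and of 0.112 CPM at that of TH588 replicate A.

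Set against the constitutive genes they replace, the immunoproteasome genes stayed a small fraction. Per kb of main transcript, *PSMB9* was at 0.683%, 0.858% and 0.705% of *PSMB6* with DMSO and at 1.25%, 1.22% and 1.36% with TH588. *PSMB10* was at 0.767%, 0.770% and 0.804% of *PSMB7* with DMSO and at 1.397%, 1.93% and 1.79% with TH588. Both ratios were higher in each TH588 library than in each DMSO library, and none passed 2%, although the ratio of *PSMB10* shares the uncertainty of its level. *PSMB8* was at most 0.0777% of *PSMB5* with DMSO and 0.158% with TH588.

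**Figure D3:**
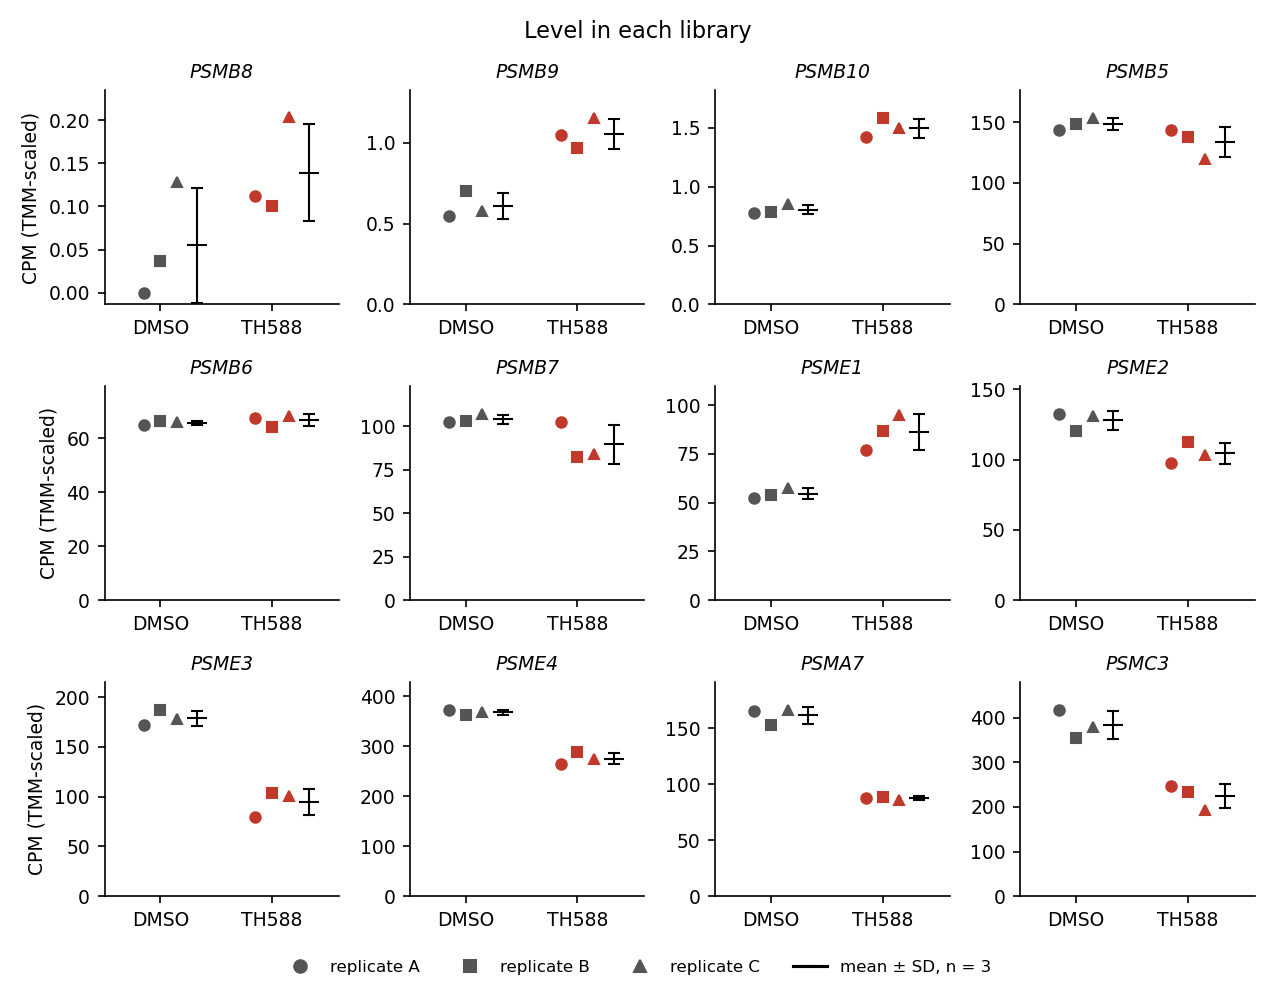
Level in each library (y axes, CPM after TMM normalization, each panel with its own scale) of 12 members, with DMSO in grey, TH588 in red, and the mean ± SD of 3 replicates beside each group. The groups are apart for *PSMB9*, *PSMB10*, *PSME1* and *PSME3*, while *PSMB6* lies at 64.3 to 68.5 CPM in all 6 libraries.

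In the cap 14 of 17 genes were lower and none was higher, and the median log2 fold change was -0.49. The shares lower and higher were 49.2% and 16.6% among tested genes with a mean log2 CPM of 6 or more. The summed level of the cap averaged 3752 ± 65.3 CPM (SD, n = 3) in the DMSO libraries and 2819 ± 75.2 CPM (SD, n = 3) in the TH588 libraries. All 6 ATPases, which form the ring that unfolds substrates, were lower. *PSMC3* (ENSG00000165916), on chromosome 11 from 47418769 to 47426473, read 418, 354 and 379 CPM with DMSO and 247, 233 and 193 CPM with TH588. The lowest DMSO library was over 100 CPM above the highest TH588 library, and the log2 fold change was -0.77 (SE 0.10, adjusted p = 5.73e-05 from edgeR). *PSMC5* fell by 0.74 on the log2 scale (adjusted p = 8.58e-06 from edgeR), and *PSMC6*, *PSMC1*, *PSMC2* and *PSMC4* by 0.62, 0.49, 0.47 and 0.47. *FTSJ3* overlaps 13.7% of the main transcript of *PSMC5* on the opposite strand.

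The base of the cap also holds the scaffolds *PSMD1* and *PSMD2* and the ubiquitin receptor *PSMD4*. *PSMD1* read 422, 439 and 447 CPM with DMSO and 303, 287 and 312 CPM with TH588, a log2 fold change of -0.54 (SE 0.08, adjusted p = 8.90e-05 from edgeR). *PSMD2* fell by 0.42 on the log2 scale (adjusted p = 0.00101 from edgeR). *PSMD4* did not pass, and averaged 373 ± 11.2 CPM (SD, n = 3) in the DMSO libraries and 384 ± 19.4 CPM (SD, n = 3) in the TH588 libraries (log2 fold change 0.04, adjusted p = 0.666 from edgeR).

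The lid removes ubiquitin chains from substrates, and 6 of its 8 genes were lower. Among tested genes with a mean log2 CPM of 6 or more, 49.2% were lower. *PSMD11*, a scaffold of the lid, read 143, 148 and 143 CPM with DMSO and 95.1, 97.9 and 99.3 CPM with TH588. Neither group spread over more than 5 CPM, and the log2 fold change was -0.57 (SE 0.07, adjusted p = 4.06e-05 from edgeR). *PSMD14*, the deubiquitinase itself, fell by 0.57, *PSMD12* by 0.55, *PSMD6* by 0.54, *PSMD13* by 0.49 and *PSMD3* by 0.33 on the log2 scale. The *PSMD3* call was lost with library size only (log2 fold change -0.23, adjusted p = 0.0762 from edgeR). *PSMD7*, the inactive partner of *PSMD14*, was at a log2 fold change of -0.21 (edgeR's adjusted p = 0.0875), and passed as lower without TH588 replicate A (-0.29, adjusted p = 0.0115 from edgeR). *PSMD8* was at 0.04 (adjusted p = 0.713 from edgeR).

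The 3 assembly chaperones bind the ATPases before the cap is complete and are not part of the finished particle. *PSMD5* fell, from 31.7, 31.8 and 32.5 CPM with DMSO to 23.1, 21.2 and 22.7 CPM with TH588 (log2 fold change -0.52, SE 0.08, adjusted p = 0.000231 from edgeR). *PSMD9* and *PSMD10* had log2 fold changes of 0.08 and 0.27 that did not pass (adjusted p = 0.669 and 0.176 from edgeR). *PSMD10*, also known as gankyrin, read 20.4 CPM in TH588 replicate A and 12.3 to 14.2 CPM in the other 5 libraries, and passed as higher without TH588 replicate B (0.40, adjusted p = 0.0411 from edgeR). Without TH588 replicate A its log2 fold change was 0.06 (adjusted p = 0.668 from edgeR).

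The activators went in both directions, with *PSME1* higher and the other 3 lower. Of all genes tested 24.2% were higher and 25.3% were lower. Tested genes with a mean log2 CPM of 6 or more had 16.6% higher and 49.2% lower. *PSME1* (ENSG00000092010) and *PSME2* (ENSG00000100911) encode the alternating subunits of 1 ring and are neighbours on chromosome 14, *PSME1* from 24136158 to 24138967 and *PSME2* from 24143362 to 24147570. *PSME1* read 52.4, 53.9 and 57.7 CPM with DMSO and 76.8, 86.6 and 95.1 CPM with TH588. The highest DMSO library was well below the lowest TH588 library, and the log2 fold change was 0.66 (SE 0.09, adjusted p = 8.26e-05 from edgeR). *PSME2* read 132, 120 and 131 CPM with DMSO and 97.4, 112 and 103 CPM with TH588. Its groups did not overlap but came close, and the log2 fold change was -0.29 (SE 0.08, adjusted p = 0.0115 from edgeR). The *PSME2* call was lost without DMSO replicate A or DMSO replicate C, and with library size only (adjusted p = 0.0687, 0.0776 and 0.229 from edgeR). Per kb of main transcript *PSME1* was at 32.5%, 36.9% and 36.2% of *PSME2* with DMSO and at 64.8%, 63.3% and 75.5% with TH588, with no overlap between the groups. The size of this ratio depends on the length used. Per kb of all annotated exons, *PSME1* and *PSME2* averaged 30.7 and 35.7 CPM with DMSO, and 48.4 and 29.1 CPM with TH588.

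*PSME3* (ENSG00000131467), the nuclear activator also called REG gamma, lies on chromosome 17 from 42824385 to 42843758 and had the largest fall of all 40 tested members. It read 172, 187 and 178 CPM with DMSO and 79.8, 103 and 100.2 CPM with TH588. The mean fell by 47.2%, with 179 ± 7.56 CPM (SD, n = 3) in the DMSO libraries and 94.4 ± 12.8 CPM (SD, n = 3) in the TH588 libraries. Its log2 fold change was -0.92 (SE 0.10, adjusted p = 1.18e-05 from edgeR). *PSME4*, the large activator PA200, read 372, 362 and 369 CPM with DMSO and 264, 287 and 273 CPM with TH588. Its log2 fold change was -0.42 (SE 0.07, adjusted p = 0.000531 from edgeR).

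Of 6 assembly factors, which build the particle and are listed apart from the members, 4 were lower and 1 was higher, with a median log2 fold change of -0.78. For comparison, 25.3% of all genes tested were lower and 24.2% were higher. *PSMG1*, a chaperone of the alpha ring, read 82.6, 87.3 and 83.6 CPM with DMSO and 30.3, 32.2 and 32.7 CPM with TH588. Its log2 fold change of -1.41 (SE 0.08, adjusted p = 7.38e-08 from edgeR) was beyond that of every member. *POMP*, which matures the beta ring, fell by 0.77, and *PSMG3* and *PSMG4* by 0.82 and 0.79 on the log2 scale. *PSMG2*, the partner of *PSMG1*, was at 0.09 on the log2 scale (edgeR's adjusted p = 0.571). *PAAF1*, which binds free cap ATPases, rose by 0.63 on the log2 scale (adjusted p = 0.000133 from edgeR).

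Of 14 partners and inhibitors of the cap, 12 were lower, none was higher and the median was -0.42, equal to that of the members at 2 decimals. Tested genes with a mean log2 CPM of 6 or more had 49.2% lower, 16.6% higher and a median of -0.22. *UCHL5*, a deubiquitinase docked on the cap, had the largest fall of the 14 partners (log2 fold change -0.86, adjusted p = 2.92e-06 from edgeR). *RAD23B*, a shuttle for ubiquitinated proteins, fell by 0.61. *SEM1*, a small lid subunit whose symbol keeps it out of the members, fell by 0.44 on the log2 scale, with TH588 replicate A inside the DMSO range. *PSMF1*, an inhibitor of the core, fell by 0.44 as well.

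Among 7 genes that control subunit expression or nuclear import of the particle, 2 were lower, with a median of -0.19. Over all genes tested, 25.3% were lower and 24.2% were higher. *NFE2L1*, which encodes NRF1, the factor that raises subunit transcription when the proteasome is blocked, read 63.1, 59.0 and 54.0 CPM with DMSO and 52.2, 61.7 and 60.3 CPM with TH588. Its log2 fold change was -0.01 (SE 0.09, adjusted p = 0.921 from edgeR). *DDI2*, the protease that activates NRF1, fell by 0.35 and *NFE2L2* by 0.30 on the log2 scale. Of 5 genes that supply ubiquitin, 1 was higher and 1 was lower. The activating enzyme *UBA1* rose by 0.41 on the log2 scale, while *UBB*, a polyubiquitin gene, fell by 0.20 (adjusted p = 0.000983 and 0.0425 from edgeR). Ubiquitin genes share coding sequence, and *UBB* is overlapped on the opposite strand over 49.4% of its main transcript, so reads may be split between copies.

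Of 9 genes for induction of the immunoproteasome, 7 could be tested, and 1 was higher, against 24.2% of all genes tested. By the bounds in the count table *TAP1*, the peptide transporter, lies within *PSMB9* on the opposite strand. The RefSeq start of *PSMB9* used above lies outside *TAP1*, whose nearer end is at 32853978. *TAP1* read 13.3, 12.3 and 13.9 CPM with DMSO and 61.2, 51.0 and 46.3 CPM with TH588. Its log2 fold change was 2.00 (SE 0.11, adjusted p = 8.35e-08 from edgeR), against 0.79 for *PSMB9*. Opposite-strand exons of another gene cover 17.0% of the main transcript of *TAP1*. *IFNG* and *IFNB1*, the interferon genes, had 0 counts in all 6 libraries. *IRF1*, which acts downstream of interferon, and *NLRC5*, the activator of class I histocompatibility genes, had log2 fold changes of 0.24 and -0.22 that did not pass (adjusted p = 0.362 and 0.348 from edgeR).

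**Figure D4:**
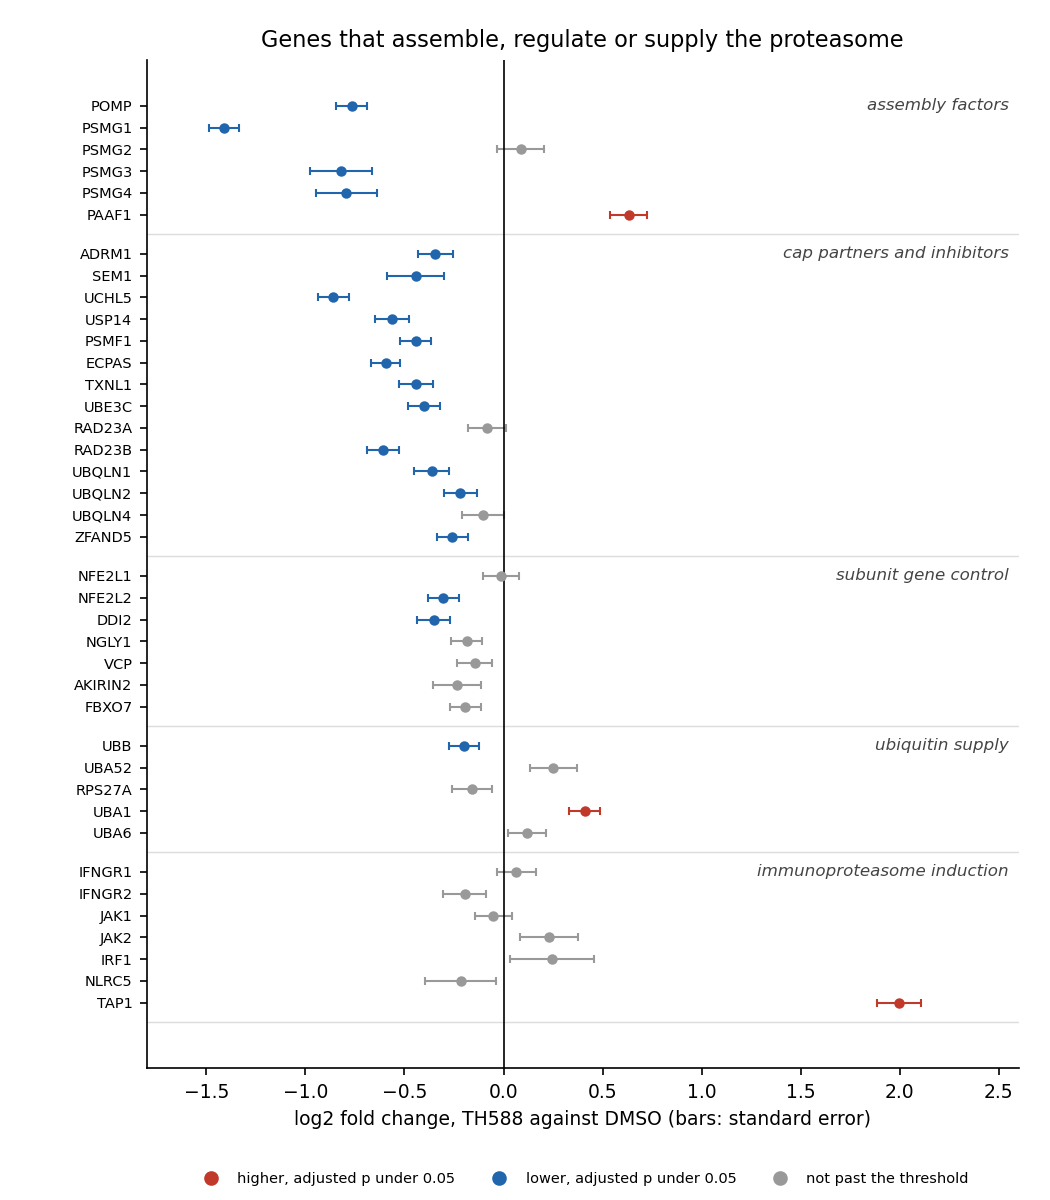
Log2 fold change of 39 genes that assemble, regulate or supply the proteasome, TH588 against DMSO (x axis), by list (rows), with bars for the standard error. *PSMG1* lies furthest to the left at -1.41 and *TAP1* furthest to the right at 2.00, and no point of a cap partner lies right of 0.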

How the data were processed

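A2780 cells treated with DMSO or TH588 were sequenced as polyA RNA in 3 replicates per group, with TruSeq libraries. The authors aligned the reads to GRCh38 with TopHat, counted them per gene with featureCounts 1.4.6 and deposited raw counts, with no normalization. Their own comparison used DESeq2. UCSC gene models are named in the methods, but identifiers in the table are from Ensembl, and the handling of strand, shared exons and multiply aligned reads is not given in the sources used here.

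Of 58336 identifiers, 57754 were matched to a symbol. Counts were compared with edgeR 4.0.16 in R 4.3.3 (default low count filter, TMM, quasi-likelihood test), with Benjamini-Hochberg adjustment over all 15844 genes tested and a threshold of 0.05. The standard error of a log2 fold change was its size over the square root of F. CPM values are scaled by TMM. For 3 against 3 the smallest p that exact permutation of 1 gene can give, two-sided, is 0.1. Members and lists were chosen with earlier results of these data known, and no list was tested as a set. Every member is named by its role. Values per library are given for the called members with the largest rise and fall in each role, for the catalytic beta genes and for all immunoproteasome and activator genes. Some listed genes are not reported here. Lists are given by their counts with their largest called rise and fall, and other genes in them were named after their values had been seen.

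Per-length levels use MANE Select transcripts of GENCODE, and exon overlap uses the exons of the deposited table. Promoter windows are from RefSeq. The procedure was tested on simulated counts. The alternatives were DESeq2's size factors in edgeR, library size only, the 10 most abundant genes left out, DESeq2 1.42.0, limma-voom (limma 3.58.1), no low count filter, a minimum of 10 counts per library, omission of each library, a replicate block by letter, removal of a gene length trend alone or with that block, and an adjusted p under 0.01. Each library counted as 1 sample, because the study describes its triplicates as biological. Libraries within each group were further apart than sampling noise (chi-square per degree of freedom of at least 23.5). That spread cannot by itself show that they are independent. The limit set by a count of 0 is 3 counts and covers counting error only.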

Additional observations from a re-analysis of the deposited data

How the results depend on the processing

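The number of members lower after TH588 ranged from 22 (library size only) to 28 (gene length trend removed) over the alternatives, against 26, and the number higher from 2 to 4, against 3. With each library left out in turn, 23 to 26 were lower and 2 to 4 were higher, and 6805 to 7914 genes were differentially expressed over all, against 7852 with all libraries. At an adjusted p under 0.01, 23 members were lower, 2 were higher and 5831 genes were called over all. Of the 40 members tested, 28 kept their side of the threshold and their direction under all 16 alternatives that gave each a log2 fold change, among them 24 of the 29 called. No called member changed direction. The 5 called members that lost their call under some alternative were *PSMA1*, *PSMA6*, *PSMB9*, *PSMD3* and *PSME2*. With library size only, *PSMA1*, *PSMA6*, *PSMD3* and *PSME2* lost it (adjusted p = 0.0868, 0.0945, 0.0762 and 0.229 from edgeR). The members that changed sign were not called under any setting: *PSMB4* was at 0.074 with library size only and at 0.0066 without TH588 replicate B, *PSMB6* was at -0.063 once the gene length trend was removed, whether or not the letters were blocked, and *PSMD9* was at -0.018 without TH588 replicate B. Across the fits that each left out a library, *PSMB4* and *PSMD9* ranged from -0.036 to 0.0066 and from -0.018 to 0.193. *PSMB7* passed as lower with limma-voom, with the length trend removed (adjusted p = 0.0369 and 0.0173) and with that removal and the block (0.0278), and *PSMB5* with the length trend removed (0.0388). The cause was not tested.

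The sample labels do not say whether libraries were paired by their letters. After the group mean was taken off, those of the same letter had correlations of -0.07, -0.08 and 0.00. With so few libraries per group these values cannot exclude pairing, so fits with and without a block by letter are given. The replicate block left 7195 genes called over all, and 26 members were lower and 2 were higher, because *PSMB9* was lost (log2 fold change 0.79, adjusted p = 0.0509 from edgeR). The letter block with the length trend removed also lost it (0.76, adjusted p = 0.0564). Depth limits what can be said of *PSMB8*, with at most 17 counts in a library, and of *PSMA8* and *PSMB11*, whose counts of 0 in TH588 replicate A still allow up to 0.112 CPM.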
